A study of Mus musculus with 12 samples.

Results

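Rab GTPases are small proteins that mark membranes inside the cell. The genes described here are the protein-coding mouse genes whose symbol is Rab followed by a number and at most a letter and a digit, as in Rab7 and Rab7b, so pseudogenes and Rab effectors are not among them. There were 59 such genes among the 36528 gene numbers measured, and all 59 were present in the count tables. Of these, 35 had enough counts to be tested and 24 did not. RNA was sequenced from Cd11b+ myeloid cells sorted from the brains of male mice at 6 months of age. A group of 6 libraries carried the human tau transgene with the P301S mutation (hMAPT-P301S, here P301S), and the other 6 came from non-transgenic littermates (NonTg). The promoter and founder line of the transgene are not stated in the labels. Whether each library came from its own animal is not labelled, so the p-values cover the spread between libraries, which may be technical.

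A Rab protein switches between a GTP-bound form that sits on a membrane and a GDP-bound form that is carried through the cytosol. Guanine nucleotide exchange factors (GEFs) switch it on, GTPase-activating proteins (GAPs) switch it off, the GDP dissociation inhibitors extract it from membranes, and effectors such as tethers and motor adaptors act on the active form. Different Rabs mark the Golgi, early, late and recycling endosomes, lysosomes and secretory organelles, and in microglia and other macrophages these routes serve phagocytosis, degradation, receptor recycling and cytokine release.

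Library depth ran from 1196069 to 4145069 counts, and Rab genes took between 0.0832% and 0.142% of them, or 1137 to 5165 counts a library. The libraries carried high levels of 8 microglial markers, whose summed level was 10773 to 14393 CPM (counts scaled by library size, written CPM here) in NonTg and 5438 to 7502 in P301S. Of those 8, 5 were lower in P301S by edgeR's quasi-likelihood test, and of the markers of other cells 1 of 6 tested astrocyte markers (adjusted p = 0.0199) and 1 of 2 tested endothelial markers (adjusted p = 0.00559) were higher. Neither list moved as a whole. The log2 fold change (P301S minus NonTg) was positive for 2 and negative for 4 astrocyte markers, with a median of -0.05. The other tested endothelial marker had a log2 fold change of -1.69 and did not pass. Mitochondrially encoded genes took 15.5% ± 3.36 (SD, n = 6) of the counts in NonTg and 25.0% ± 6.91 in P301S, and Malat1, a nuclear RNA, took 14.7% ± 2.39 and 9.51% ± 1.04. Markers of other cells were far below the microglial ones, with neuronal markers at 72.2 to 172 CPM in NonTg and 25.6 to 155 in P301S and astrocyte markers at 124 to 690 and 154 to 708. Oligodendrocyte markers stood at 184 to 284 and 182 to 487 CPM, monocyte markers at 14.3 to 334 and 20.0 to 74.9, border macrophage markers at 10.1 to 66.7 and 13.2 to 29.4, and endothelial markers at 8.12 to 34.1 and 21.3 to 82.1. Neutrophil markers reached 70.5 CPM in NonTg and 25.0 in P301S, lymphocyte markers reached 16.4 and 7.61, and the monocyte genes Ly6c2 and Plac8 and the neutrophil gene Camp were at 0 in all P301S libraries. The part of these differences in the Rab results was not tested. In bulk RNA of this kind, fewer cells of a type and less RNA per cell cannot be told apart.

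In the Rab family, Rab7b was higher and Rab39 was lower in P301S, and the other 33 tested genes did not pass the threshold of an adjusted p of 0.05 (edgeR's quasi-likelihood test, Benjamini-Hochberg adjustment over 10022 genes). That is 5.71% of the 35, beside 3.87% of all tested genes (2.37% higher and 1.5% lower). At an unadjusted p under 0.05 there were 4 of 35 Rab genes (11.4%), beside 15.8% of all genes, namely Rab7b, Rab39, Rab7 and Rab6b. The library ranges of both groups did not overlap for the same Rab7b and Rab39, which is 2 of 35, beside 3.28% of all tested genes. The log2 fold changes (P301S minus NonTg) were positive for 17 Rab genes and negative for 18, with a median of -0.01, beside -0.02 over all genes. Their standard errors ran from 0.26 to 0.86 with a median of 0.58, beside a median of 0.56 over all genes.

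**Figure D1:**
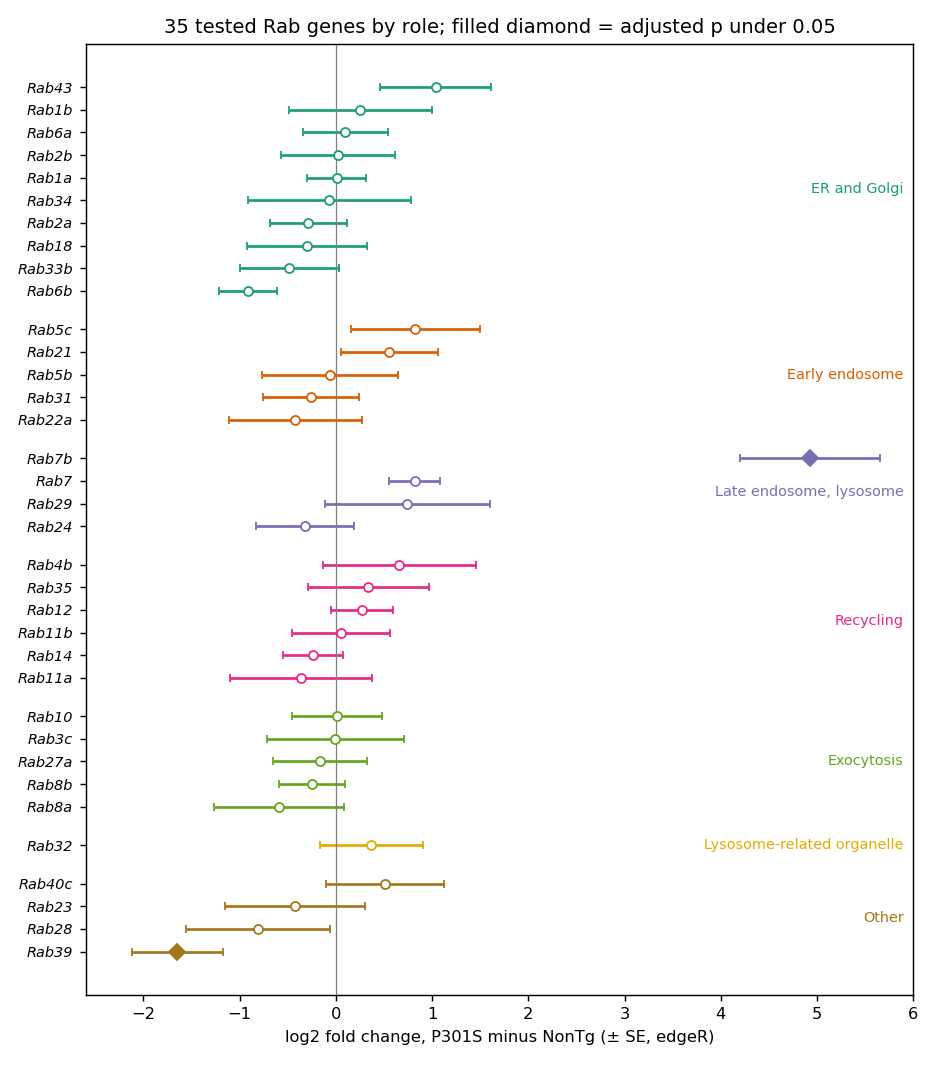
Log2 fold change (P301S minus NonTg, horizontal axis, bars ± SE of edgeR's fit) of the 35 tested Rab genes, ordered by the compartment each is known for. Filled diamonds mark an adjusted p under 0.05: Rab7b stands alone at 4.92 and Rab39 lies lowest at -1.65, while the open circles lie between -0.91 and 1.04.

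The summed level of the family was similar between the groups. Over all 59 genes it was 1112 ± 150 CPM in NonTg (SD, n = 6, range 975 to 1347) and 1168 ± 136 in P301S (1046 to 1401), so the ranges overlapped almost completely. Per length, on the deposited size-factor-adjusted RPKM scale, the sum was 78.0 ± 10.7 and 85.8 ± 10.5. Between 43 and 49 Rab genes had at least 1 count in a NonTg library and between 43 and 50 in a P301S library. On the RPKM scale, which allows genes to be set against each other, Rab7 had the highest level of the family (11.6 ± 2.19 RPKM in NonTg and 20.5 ± 8.90 in P301S). Rab14, which works between the trans-Golgi network and endosomes, followed with mean RPKM levels of 7.10 and 5.98. Rab1a, which directs traffic from the endoplasmic reticulum to the Golgi, came next at 6.39 and 6.46 RPKM, then Rab2a, of Golgi traffic, at 4.55 and 3.71 and Rab6b at 3.66 and 1.95. The levels of Rab14 and Rab1a in the order did not differ beyond their spread, as both ranged over several RPKM between libraries. The genes grouped with late endosomes and lysosomes made up 20.4% ± 4.005 of the summed Rab RPKM in NonTg and 30.3% ± 7.99 in P301S (SD, n = 6), and those of the endoplasmic reticulum and Golgi made up 30.9% ± 3.54 and 25.7% ± 3.64. These shares are a description of the family, with no test, and Rab7 alone was 15.3% ± 4.58 and 23.8% ± 9.80 of the sum.

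**Figure D2:**
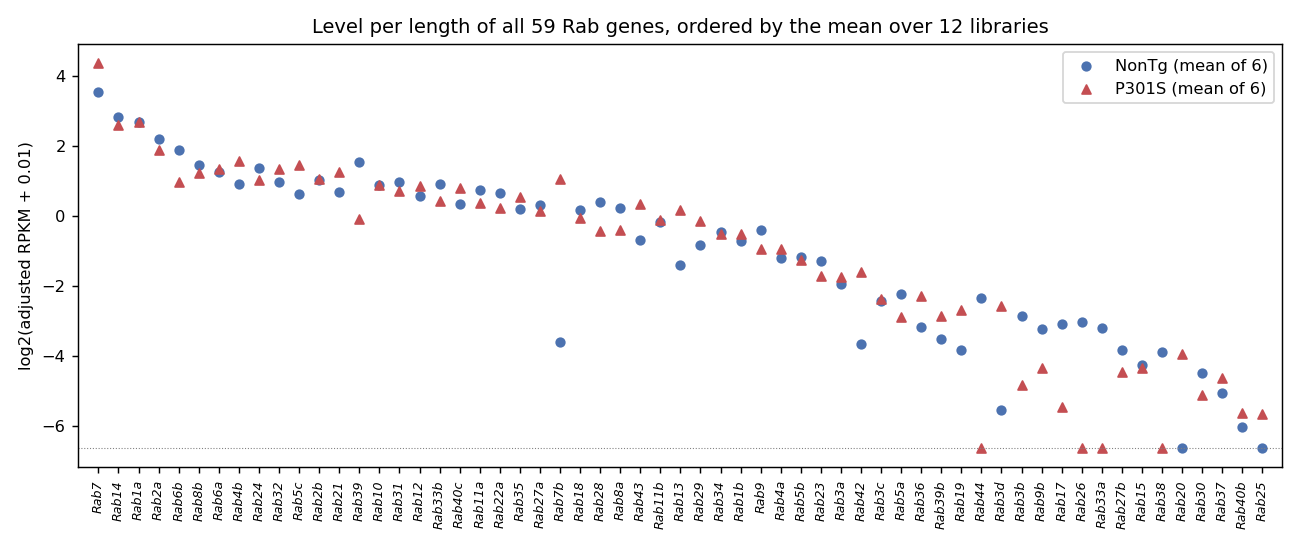
Mean level per length of all 59 Rab genes, as log2(adjusted RPKM + 0.01), ordered from the highest to the lowest mean over 12 libraries, with NonTg as circles and P301S as triangles and the dotted line at a level of 0. Most pairs of symbols lie close together, while Rab7b rises from 0.0722 RPKM to 2.08 and Rab39 falls from 2.90 to 0.928.

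Late endosomes and lysosomes are the degradative end of the endocytic route. Of the 6 Rab genes assigned to them, 4 were tested, and 1 of those, Rab7b, was higher in P301S and none was lower. Over all tested genes 2.37% were higher and 1.5% lower, and a set of 4 is too small to be set against those shares. Rab7b is a relative of Rab7 known from late endosomes and the trans-Golgi network and, in macrophages, from limiting Toll-like receptor signalling. It lies on chromosome 1 (GRCm38, 131688681 to 131715443, plus strand; Entrez gene 226421), and no other gene of the GENCODE M21 annotation overlaps it. In NonTg libraries 1 to 6 it had 0, 0, 1.83, 4.99, 0.812 and 1.61 CPM, from 0, 0, 2, 7, 1 and 6 counts. In P301S libraries 1 to 6 it had 70.7, 35.3, 26.0, 38.1, 49.2 and 46.5 CPM, from 220, 130, 51, 59, 155 and 171 counts. Every P301S library was at least 5 times above the highest NonTg library, NonTg 4. The means were 1.54 ± 1.86 and 44.3 ± 15.4 CPM (SD, n = 6), a log2 fold change of 4.92 ± 0.73 (SE) or 30.4-fold, with an edgeR adjusted p of 6.43e-05. The baseline rests on 16 counts in all NonTg libraries together, so the size of the fold is less certain than its direction.

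Rab7, on chromosome 6 (87999106 to 88045270, minus strand; Entrez gene 19349), is the general late-endosomal Rab that drives the fusion of endosomes, phagosomes and autophagosomes with lysosomes. Its NonTg levels were 169, 160, 134, 102, 114 and 131 CPM. Its P301S levels were 115, 357, 167, 347, 274 and 173 CPM. P301S 2, 4 and 5 were well above all NonTg libraries, P301S 1 and 3 lay within the NonTg range, and P301S 6 was just above its upper end. The means were 135 ± 25.7 and 239 ± 101 CPM (SD, n = 6), with a log2 fold change of 0.82 ± 0.26 and an edgeR adjusted p of 0.0802, which did not pass. Without P301S 1 the adjusted p was 0.0364, and with no filter on low counts it was 0.0404, while in the other 19 of 21 alternatives Rab7 did not pass, with an adjusted p of up to 0.480. Rab7b made up 0.734% ± 0.972 of the summed RPKM of Rab7 and Rab7b in NonTg (range 0 to 2.61) and 10.9% ± 7.48 in P301S (5.13 to 25.1). Rab7 thus remained the main form of the pair in all 12 libraries, with the highest Rab7b share in P301S 1, the library with the lowest Rab7 of its group. Gm5577, annotated on the opposite strand, and Gm44187 overlap Rab7, and whether the libraries keep strand is not given in the sources used here, so reads of Rab7 and Gm5577 cannot be told apart.

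**Figure D3:**
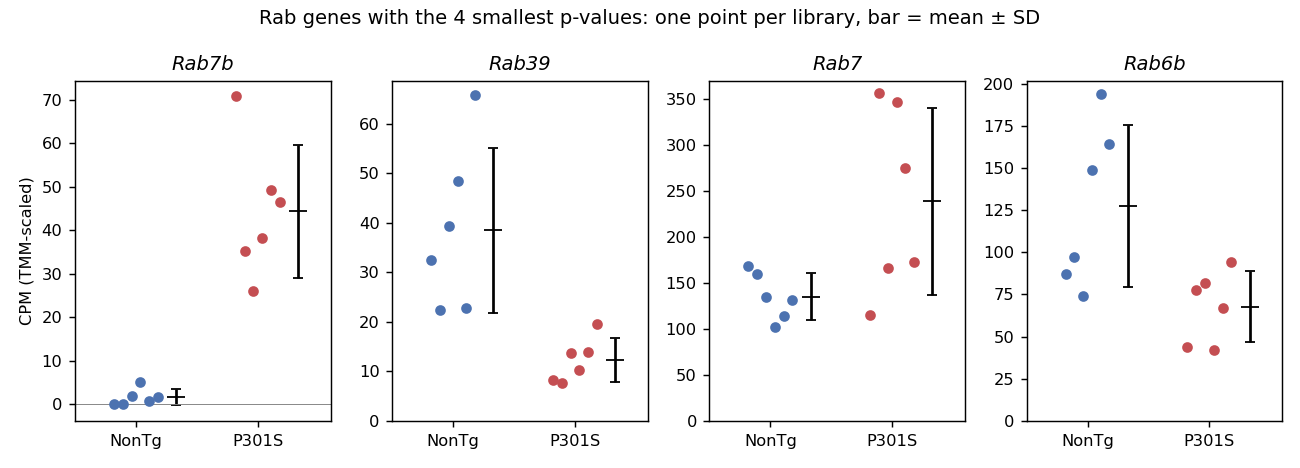
CPM per library (TMM-scaled, linear axes) of the 4 Rab genes with the smallest p-values, 6 NonTg points and 6 P301S points each, with the mean ± SD as a black bar. The P301S points of Rab7b (26.0 to 70.7) lie wholly above the NonTg points and those of Rab39 (7.59 to 19.6) wholly below, while the groups of Rab7 and Rab6b overlap.

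The other tested genes of the late endosome and lysosome group did not pass. Rab29, which recruits the kinase LRRK2 to Golgi and lysosomal membranes, had low levels of 0.406, 3.14, 8.22, 0, 4.87 and 3.49 CPM in NonTg and 7.72, 5.97, 4.59, 0, 7.93 and 6.25 in P301S. The groups overlapped and each held a library at 0, and the log2 fold change was 0.74 ± 0.86 (edgeR adjusted p = 0.766). Rab24, a Rab of late autophagy, had 21.5 and 17.1 CPM on average and a log2 fold change of -0.32 ± 0.51 (adjusted p = 0.841). Rab9, which returns cargo from late endosomes to the Golgi, and Rab9b had too few counts for the test, with mean levels of 5.12 and 1.61 CPM in NonTg and 3.50 and 0.65 in P301S.

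Rab39 was the only tested member that was lower in P301S. Its protein, also known as Rab39a, has been tied to the maturation of phagosomes and to caspase-1 in macrophages. It lies on chromosome 9 (53684110 to 53706232, minus strand; Entrez gene 270160) and overlaps the processed pseudogene Rps6-ps3 on the same strand. NonTg libraries 1 to 6 had 32.5, 22.4, 39.3, 48.5, 22.7 and 65.8 CPM. P301S libraries 1 to 6 had 8.36, 7.59, 13.8, 10.3, 14.0 and 19.6 CPM. The highest P301S library, P301S 6, was just below the lowest NonTg libraries, NonTg 2 and NonTg 5, so the ranges did not overlap but came close. The means were 38.5 ± 16.7 and 12.3 ± 4.46 CPM (SD, n = 6), and the log2 fold change was -1.65 ± 0.47 with an edgeR adjusted p of 0.0451. The call was near the threshold, since it was lost on leaving out any of 10 of the 12 libraries (all but NonTg 2 and NonTg 5). Over all 12 omissions the edgeR adjusted p ran from 0.0438 to 0.151, while the log2 fold change stayed between -1.83 and -1.42. Its relative Rab39b had only 1.18 and 1.92 CPM on average and was not tested, and Rab39 made up 97.5% ± 2.23 and 88.5% ± 9.84 of their summed RPKM. The summed microglial markers were also lower in every P301S library than in any NonTg library, as given above, and their part in the Rab39 result was not tested.

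The 250 bases before the annotated starts of Rab39 and Rab7 are shown because Rab39 was the member called lower and Rab7 the most abundant member per length. They are from RefSeq on GRCm38.p6, read 5′ to 3′ on the gene's strand, with matches to the GC box GGGCGG in capitals on either strand.
Rab39 (chr9:53706233-53706482, minus strand): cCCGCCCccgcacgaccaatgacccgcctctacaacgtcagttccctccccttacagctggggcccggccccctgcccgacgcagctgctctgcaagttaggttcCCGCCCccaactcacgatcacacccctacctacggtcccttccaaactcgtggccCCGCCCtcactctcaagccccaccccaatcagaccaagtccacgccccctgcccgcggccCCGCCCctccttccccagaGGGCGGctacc
Rab7 (chr6:88045271-88045520, minus strand): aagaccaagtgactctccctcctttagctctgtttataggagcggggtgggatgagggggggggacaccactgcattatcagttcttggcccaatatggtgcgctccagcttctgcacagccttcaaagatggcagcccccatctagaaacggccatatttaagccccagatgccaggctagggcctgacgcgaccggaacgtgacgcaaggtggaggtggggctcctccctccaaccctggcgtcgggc
The Rab39 window is 68.8% G and C and holds 5 matches to GGGCGG, which begin 249, 145, 90 and 30 bases before the start on the opposite strand and 11 bases before it on the gene's own strand. The Rab7 window is 59.2% G and C and holds none of the motifs searched, although windows of other listed Rab7 starts do. A promoter window was matched for 48 of the 59 Rab genes, and none for Rab18, Rab26, Rab27b, Rab2a, Rab30, Rab36, Rab37, Rab38, Rab44, Rab4a and Rab7b. The motifs were searched on both strands of the 250 bases, counting a gene when any of its listed starts had a match. GGGCGG was found for 36 of the 48 Rab genes (75.0%), beside 45.8% of 17492 protein-coding genes and 35.4% of all 27025 genes with a window. The E-box CACGTG, the core of the element bound by the lysosomal regulator TFEB, was found for 5 (10.4%, namely Rab20, Rab21, Rab23, Rab27a and Rab5a), beside 7.61% of protein-coding genes and 6.86% of all. GGAAGT, a core of ETS factors such as the macrophage factor PU.1, was found for 10 (20.8%), beside 23.0% and 22.2%. TGANTCA, the element of AP-1 factors, was found for 2 (4.17%), beside 7.19% and 7.82%. These shares describe the letters in the windows only.

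Rabs of the endoplasmic reticulum and Golgi carry new proteins towards the cell surface and return cargo to the Golgi. Of 14 such genes 10 were tested and none passed with edgeR, beside 3.87% of all genes. In edgeR 1 was at an unadjusted p under 0.05, beside 15.8% of all genes. None passed with limma voom, while DESeq2 called 1 lower, Rab6b. Rab6b, the Rab6 form best known from neurons, works in retrograde Golgi traffic and lies on chromosome 9 (103111667 to 103185276, plus strand; Entrez gene 270192). Its NonTg levels were 86.9, 97.3, 74.0, 149, 194 and 164 CPM. Its P301S levels were 43.7, 77.8, 81.6, 42.0, 67.2 and 94.1 CPM. NonTg 2, 4, 5 and 6 lay above all P301S libraries and P301S 1, 4 and 5 below all NonTg libraries, with the rest overlapping. The means were 128 ± 48.2 and 67.7 ± 21.1 CPM (SD, n = 6), a log2 fold change of -0.91 ± 0.30 with an adjusted p of 0.0933 in edgeR and 0.0409 in DESeq2. In the other 20 of 21 alternatives Rab6b did not pass, with an adjusted p of up to 0.401. Neuronal markers summed to 72.2 to 172 CPM in NonTg and 25.6 to 155 in P301S, and their part in the Rab6b values was not tested. Rab6b made up 60.5% ± 11.6 of the summed RPKM of Rab6a and Rab6b in NonTg and 46.6% ± 13.3 in P301S, since Rab6a itself had a log2 fold change of 0.10 ± 0.44 (edgeR adjusted p = 0.951).

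Among the other Golgi genes, Rab43 had the largest positive log2 fold change at 1.04 ± 0.58. It acts in traffic between the endoplasmic reticulum and the Golgi, and its levels were 29.2, 16.5, 7.31, 7.13, 5.68 and 13.4 CPM in NonTg and 36.6, 45.6, 9.18, 5.16, 29.2 and 38.6 in P301S. P301S 1, 2 and 6 were above all NonTg libraries, P301S 5 was level with NonTg 1, P301S 4 was the lowest of the 12, and the edgeR adjusted p was 0.405. Rab33b, which binds the autophagy protein Atg16l1 at the Golgi, had a log2 fold change of -0.48 ± 0.52 (adjusted p = 0.742) and Rab2a one of -0.29 ± 0.40 (adjusted p = 0.811). Rab1a was nearly level, with 75.7 ± 31.8 and 76.2 ± 10.9 CPM (SD, n = 6) and a log2 fold change of 0.01 ± 0.31 (adjusted p = 0.995). The remaining tested genes of this group, Rab18, Rab1b, Rab34 and Rab2b, had log2 fold changes of -0.30, 0.25, -0.07 and 0.02.

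Early endosomes receive cargo from the plasma membrane and phagosomes pass through a like stage. Of 7 Rab genes assigned to them 5 were tested, and none passed with edgeR (beside 3.87% of all genes), DESeq2 or limma voom. None was at an unadjusted p under 0.05 in edgeR, beside 15.8% of all genes. Rab5c, a form of the Rab that defines the early endosome, had 3.65, 4.32, 17.4, 24.2, 11.4 and 20.1 CPM in NonTg and 15.4, 2.98, 17.3, 5.16, 74.5 and 26.9 in P301S. P301S 5 stood far above the other 11 libraries, which overlapped. The log2 fold change of 0.82 ± 0.67 (edgeR adjusted p = 0.631) became 0.03 without that library. Rab21, which carries integrins, had mean levels of 16.1 and 23.8 CPM and a log2 fold change of 0.55 ± 0.50 (adjusted p = 0.681). Rab22a, of endosomal sorting, had -0.42 ± 0.69 (adjusted p = 0.847), Rab31, of transport from the trans-Golgi network to endosomes and of phagocytosis, had -0.26 ± 0.49 (adjusted p = 0.877), and Rab5b had -0.06 ± 0.71 on the log2 scale. Rab31 ranged from 20.0 to 45.9 CPM in NonTg and from 3.23 in P301S 4 to 50.4 in P301S 5, so its groups overlapped. The other early-endosomal forms were hardly measured: Rab5a had 2.15 CPM in NonTg and 1.32 in P301S, from 53 counts in all, and Rab20, a phagosomal Rab, had 3 counts in all.

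Recycling Rabs return receptors to the cell surface. Of 10 such genes 6 were tested, and none passed with edgeR (beside 3.87% of all genes), DESeq2 or limma voom. None was at an unadjusted p under 0.05 in edgeR, beside 15.8% of all genes. Rab14 had 100, 55.3, 117, 191, 58.4 and 61.7 CPM in NonTg and 110, 81.6, 62.2, 61.3, 86.3 and 91.4 in P301S. NonTg 4 was the highest library and all P301S libraries lay within the NonTg range, with a log2 fold change of -0.24 ± 0.32 (adjusted p = 0.803). Rab11a, the Rab of the slow recycling endosome, had 0.406, 10.2, 25.6, 30.6, 18.7 and 18.5 CPM in NonTg and 49.8, 4.34, 5.61, 9.04, 3.81 and 7.34 in P301S. P301S 1 was the highest of the 12 and the other P301S libraries were below all NonTg libraries but NonTg 1. Rab11a had a fitted log2 fold change of -0.36 ± 0.74 (adjusted p = 0.886), or -1.51 without P301S 1 (adjusted p = 0.379). Rab12, listed with this group although it sends transferrin receptor to degradation, had mean levels of 54.5 and 65.7 CPM. Its log2 fold change was 0.27 ± 0.32 (edgeR adjusted p = 0.778). Rab4b and Rab35, both of fast recycling, had log2 fold changes of 0.66 ± 0.80 (adjusted p = 0.780) and 0.34 ± 0.63 (adjusted p = 0.874), and Rab11b had 0.05 ± 0.51 (adjusted p = 0.979).

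Exocytic Rabs bring vesicles and secretory lysosomes to the plasma membrane. Of 12 such genes 5 were tested, and none passed with edgeR (beside 3.87% of all genes), DESeq2 or limma voom. None was at an unadjusted p under 0.05 in edgeR, beside 15.8% of all genes. Rab8a, of traffic from the Golgi and endosomes to the surface, had 2.03, 11.4, 20.1, 9.26, 9.74 and 9.12 CPM in NonTg and 5.79, 8.14, 5.10, 7.10, 2.54 and 11.7 in P301S. The P301S libraries lay within the NonTg range, with a log2 fold change of -0.59 ± 0.68 (adjusted p = 0.765). Rab8b, its close relative, was more abundant, with 71.6 ± 26.5 and 60.5 ± 23.1 CPM (SD, n = 6) and a log2 fold change of -0.25 ± 0.34 (adjusted p = 0.811). Rab27a, which docks secretory lysosomes and exosome-bearing bodies, had 25.8 and 23.1 CPM on average and a log2 fold change of -0.16 ± 0.49 (adjusted p = 0.928). Rab10, known from the insulin-driven delivery of glucose transporters, had 29.6, 13.7, 16.4, 20.0, 57.6 and 33.5 CPM in NonTg and 19.3, 56.7, 20.4, 30.3, 25.7 and 19.3 in P301S. A single library in each group, NonTg 5 and P301S 2, stood well above the rest, which overlapped, with a log2 fold change of 0.01 ± 0.47 (adjusted p = 0.995). Rab3c, of synaptic vesicle release, was low at 7.22 and 7.36 CPM (log2 fold change -0.01 ± 0.71).

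Lysosome-related organelles are served by Rab32 and Rab38. Rab32, which also acts in the defence of macrophages against bacteria, had 26.0, 9.42, 30.2, 13.5, 4.06 and 23.3 CPM in NonTg and 37.6, 19.0, 12.7, 12.9, 35.2 and 19.9 in P301S. The groups overlapped, with means of 17.7 ± 10.3 and 22.9 ± 10.9 CPM (SD, n = 6) and a log2 fold change of 0.37 ± 0.54 (edgeR adjusted p = 0.822). Rab38 had 4 counts in 2 NonTg libraries and 0 in P301S. The other tested Rabs with no place in these groups, apart from Rab39, were Rab28 and Rab23, both known from cilia, and Rab40c, which has a SOCS box and takes part in ubiquitination. Their log2 fold changes were -0.81 ± 0.75 (adjusted p = 0.684), -0.42 ± 0.73 (adjusted p = 0.857) and 0.51 ± 0.61 (adjusted p = 0.777). The value of Rab28 turned positive with limma voom (0.18) and without the 3 shallowest NonTg libraries, NonTg 3, 4 and 5 (0.54), and that of Rab40c ran from 0.15 to 0.81 over single omissions.

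The kinase LRRK2, a Parkinson disease gene product, phosphorylates a set of Rabs. Of 14 Rab genes listed as its substrates 10 were tested, 6 with a positive and 4 with a negative log2 fold change and a median of 0.14. Over all tested genes 48.8% were positive and the median was -0.02. None of the 10 passed with edgeR (beside 3.87% of all genes), DESeq2 or limma voom. At an unadjusted p under 0.05 in edgeR there was none either, beside 15.8% of all genes. Lrrk2 itself had a log2 fold change of 0.23 ± 0.86 (edgeR adjusted p = 0.942).

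The 24 Rab genes below the filter had between 1 and 245 counts over all 12 libraries, with a median of 34.5. Besides Rab5a, Rab20, Rab9, Rab9b, Rab38 and Rab39b they were Rab19, Rab30, Rab33a and Rab36 of the Golgi group, Rab13, Rab26, Rab27b, Rab37, Rab3a, Rab3b and Rab3d of exocytosis, Rab15, Rab17, Rab25 and Rab4a of recycling, and Rab40b, Rab42 and Rab44. When all genes with a count were fitted in edgeR with no filter, Rab44 alone among these passed the threshold (adjusted p = 0.0143). Over all genes that fit called far more than the main fit, most of them lower, with the counts given below. Rab44, a large Rab of granulocytes and mast cells, had 40 counts in NonTg, in 3 libraries at 0.914, 17.8 and 11.4 CPM (NonTg 3, 4 and 5), and 0 in all P301S libraries. Its level over the NonTg group was 18.3-fold above a floor of 3 counts over the P301S group. However, 3 of the NonTg libraries were at 0 as well. The summed neutrophil markers were 0.914, 70.5 and 2.43 CPM in NonTg 3, 4 and 5 and 40.4 CPM in NonTg 2, where Rab44 was at 0, and their part in the Rab44 values was not tested. Rab26, a vesicle Rab, had 12 counts in 4 NonTg libraries and 0 in P301S, a NonTg level 5.50-fold above the same floor. Rab33a, a Golgi Rab, had 5 counts in 1 NonTg library and 0 in P301S, a NonTg level 2.29-fold above that floor. For Rab38 it was 1.83-fold above. In the edgeR fit with no filter, Rab26, Rab33a and Rab38 did not pass (adjusted p = 0.119, 0.124 and 0.143). Rab20 and Rab25 had 3 and 1 counts, all in P301S, which is not above the floor. These floors cover only the counting error of the group at 0. They cover neither the error of the few counts in the other group nor the spread between libraries.

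Some low members were seen mainly in P301S, without a test in the filtered table. Rab3d, of regulated secretion, had 0.406, 0.785, 0, 0, 0 and 0 CPM in NonTg and 1.29, 0, 6.63, 3.87, 4.12 and 0.544 in P301S. Rab42 had 0, 0, 0.914, 0, 0.812 and 2.95 CPM in NonTg and 10.3, 2.44, 0, 0, 0.317 and 8.70 in P301S. Rab13, of tight junctions and surface delivery, had 0.406, 5.10, 0, 0, 13.8 and 2.15 CPM in NonTg and 1.29, 1.08, 0.510, 8.39, 27.0 and 26.9 in P301S. In each of these 3 genes the groups overlapped, with libraries at or near 0 on both sides. These 3 genes were chosen for mention after their values were seen. In the edgeR fit with no filter none of them passed (adjusted p = 0.234 for Rab3d, 0.402 for Rab42 and 0.252 for Rab13). Other low members went the other way, such as Rab3b, with 42 counts in NonTg, 41 of them in NonTg 6, and 4 in P301S.

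The proteins that act on Rabs were read from lists of 132 genes, of which 112 were tested. Of these 2 were higher and none was lower in P301S (1.79% of 112, beside 3.87% of all genes), and both are effectors. There were 13 at an unadjusted p under 0.05 (11.6%, beside 15.8% of all genes). A positive log2 fold change was found for 71 and a negative one for 41, so that 63.4% were positive, beside 48.8% of all genes, and the median was 0.21, beside -0.02. Plekhm2, also called SKIP, joins lysosomes to the motor kinesin through the GTPase Arl8 and has been described as a Rab9 binder. It lies on chromosome 4 (141625732 to 141664146; Entrez gene 69582). Its levels were 4.46, 33.7, 14.6, 22.1, 30.8 and 4.83 CPM in NonTg and 82.6, 42.6, 80.0, 94.2, 162 and 101 in P301S. All P301S libraries were above all NonTg libraries, with P301S 5 highest and P301S 2 lowest. The means were 18.4 ± 12.6 and 93.8 ± 39.1 CPM (SD, n = 6), a log2 fold change of 2.36 ± 0.46 with an edgeR adjusted p of 0.00221.

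Mical1, a flavin monooxygenase that takes actin filaments apart and binds several Rabs, lies on chromosome 10 (41475860 to 41487030; Entrez gene 171580). Its levels were 3.25, 13.3, 13.7, 11.4, 7.30 and 1.34 CPM in NonTg and 68.5, 46.9, 29.6, 5.81, 30.8 and 35.6 in P301S. All P301S libraries but P301S 4 were above all NonTg libraries. The means were 8.39 ± 5.28 and 36.2 ± 20.8 CPM (SD, n = 6), a log2 fold change of 2.13 ± 0.61 with an edgeR adjusted p of 0.0433. Leaving out any of 9 of the 12 libraries (all but NonTg 2, NonTg 3 and P301S 4) ended this call, with adjusted p between 0.0141 and 0.149 over the 12 omissions. Optn, an autophagy receptor and Rab8 effector, did not pass in the main edgeR fit (log2 fold change 2.54 ± 0.79, adjusted p = 0.0673). It did not pass in any of the 12 single omissions either. It passed in DESeq2, in limma voom, in edgeR with no filter on low counts and in both fits of RPKM values. Its levels were 6.09, 0, 5.48, 5.70, 2.43 and 0.537 CPM in NonTg and 35.4, 6.51, 13.3, 11.0, 22.5 and 26.6 in P301S, where the lowest P301S library was just above the highest NonTg library. Optn and the 2 GAPs named next were chosen after their values were seen.

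No GEF or GAP passed in the main edgeR fit, beside 3.87% of all tested genes. Of 34 GEFs 31 were tested and 2 were at an unadjusted p under 0.05 (6.45%, beside 15.8% of all genes), with no call in DESeq2 or limma voom either. Of 37 GAPs 30 were tested and 4 were at an unadjusted p under 0.05 (13.3%, beside 15.8% of all genes). DESeq2 called 1 GAP, Evi5, lower, and limma voom called 2, Evi5 lower and Tbc1d8 higher. In the main edgeR fit, Evi5, known as a GAP of Rab11, had a log2 fold change of -0.96 ± 0.29 (adjusted p = 0.0654) and Tbc1d8 one of 1.20 ± 0.40 (adjusted p = 0.0969). Some other edgeR settings also gave calls. Evi5 passed without NonTg 3 and with NonTg 3, 4 and 5 left out together. Tbc1d8 passed with no filter on low counts and on leaving out NonTg 1 or NonTg 2. Each did not pass in 17 of the 21 alternatives. All 7 genes of GDP dissociation inhibitors, escort proteins and prenylation were tested. None passed in edgeR (beside 3.87% of all genes), DESeq2 or limma voom, and none was at an unadjusted p under 0.05 in edgeR.

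**Figure D4:**
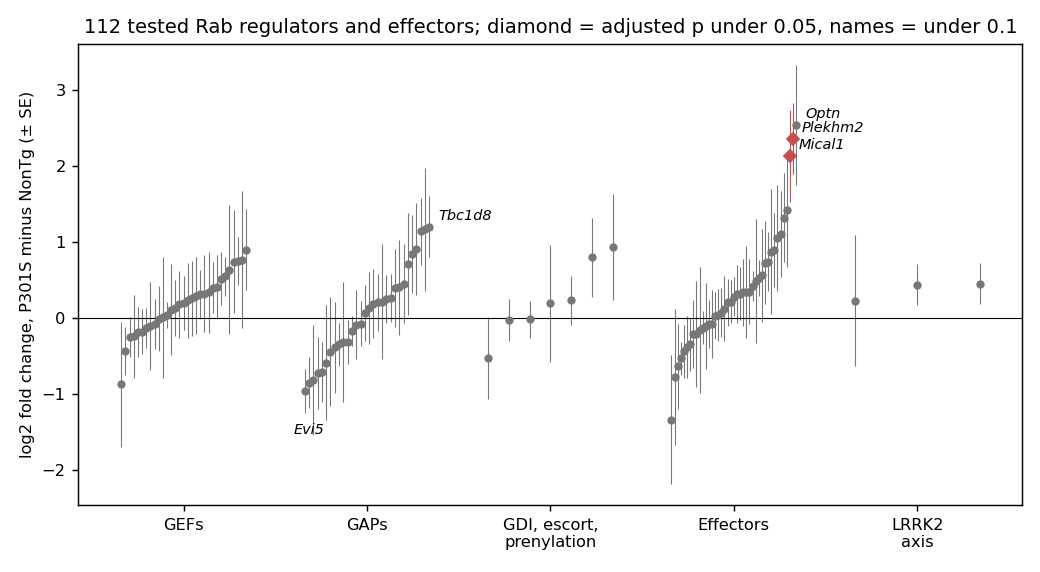
Log2 fold change (P301S minus NonTg, vertical axis, bars ± SE of edgeR's fit) of the 112 tested Rab regulators and effectors, sorted within each of 5 lists. The 2 diamonds with an adjusted p under 0.05 are Plekhm2 at 2.36 and Mical1 at 2.13, both effectors, and genes with an adjusted p under 0.1 are named.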

How the data were processed

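RNA-seq of sorted Cd11b+ brain cells gave 12 libraries, 6 per genotype. The authors deposited, per the file headers, counts of uniquely aligned reads per Entrez gene and RPKM values adjusted by a size factor per sample. GSNAP and GRCm38 were used, per the submitters' processing notes, while the counting tool, annotation and strand setting are not given in the sources used. The deposited RPKM equalled the counts times a constant of the library and one of the gene (largest relative deviation 1.9e-14), so both carry the same measurement. Unique alignment can undercount genes with near-identical copies, and pseudogenes of Rab genes were not analysed here.

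Symbols and coordinates (1-based) came from a RefSeq table of GRCm38.p6, which matched 31049 gene numbers (85.0%). The members, lists and named genes were chosen with earlier results of these data known. Counts were tested with edgeR 4.0.16 in R 4.3.3 (quasi-likelihood, robust, TMM, filterByExpr with a minimum count of 10, no covariate) over 10022 genes, adjusted by Benjamini-Hochberg with a threshold of 0.05. Standard errors were taken as the absolute log2 fold change over root F, and CPM use TMM-scaled library sizes. Alternatives used DESeq2 1.42.0, limma 3.58.1, other filters, size factors and library sizes, RPKM with pseudocounts of 1 and 0.1, and each library left out. The code was tested on simulated data with known folds. Of genes with a true log2 fold change of -1, 3 of 41 were called, and at 1 it was 13 of 49. At -2 it was 18 of 39 and at 2 it was 33 of 50, while 3 of 9364 unchanged genes were called. Genes that did not pass may therefore still have changed by such folds. Counts differed beyond sampling noise in each of the 30 within-group pairs of libraries (chi-square over degrees of freedom at least 18.2), so none was merged. The biological coefficient of variation was 0.64, so the spread between libraries limited the precision more than counting error did, except for the lowest genes.

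Named were Rab genes past the threshold, 12 always reported (Rab7, Rab7b, Rab5a, Rab11a, Rab27a, Rab32, Rab38, Rab8a, Rab10, Rab29, Rab14 and Rab31), up to 4 of smallest p per role group, the 3 highest by RPKM, the members below the filter, and regulators past the threshold up to 8 per list. Rab41 was listed and had no match.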

Additional observations from a re-analysis of the deposited data

Results flagged for a closer look

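In 5 of the 54 groups of 6 libraries examined for the 27 named and tested Rab genes, a single library lay far from the rest by Dixon's ratio. Chance meets this rule in about 1 in 20 groups of normally distributed values. Its rate for CPM values such as these was not tested. Rab7b had 4.99 CPM in NonTg 4, while the other NonTg libraries had 0 to 1.83. Without that library its log2 fold change was 5.72. Rab11a had 49.8 CPM in P301S 1, while the other P301S libraries had 3.81 to 9.04. Rab10 had 56.7 CPM in P301S 2, against 19.3 to 30.3 in the others of its group, and without that library its log2 fold change was -0.30 (edgeR adjusted p = 0.850). Rab5c had 74.5 CPM in P301S 5, against 2.98 to 26.9. Rab35 had 0 CPM in NonTg 3, against 15.4 to 20.0 in the other NonTg libraries, and without that library its log2 fold change was 0.10. No cause was tested for any of these.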

How the results depend on the processing

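Rab7b was higher past the threshold in all 21 alternatives, with log2 fold changes from 1.49 (RPKM plus 1) to 6.05 and at most an adjusted p of 6.41e-04. Rab39 kept its direction in all 21 and lost its call in 13, with no filter (adjusted p = 0.0739), a mean of at least 1 CPM (0.0782), the 3 shallowest NonTg libraries left out together (NonTg 3, 4 and 5, 0.146; chosen after seeing the data) and 10 omissions. With a mean of at least 1 CPM, and with those 3 libraries out, 1 Rab gene was called and 0 were lower. With no filter 2 were higher (Rab7 and Rab7b), and with DESeq2 2 were lower (Rab39 and Rab6b). Over single omissions 1 to 2 Rab genes were called, 1 to 2 higher and 0 to 1 lower. Of the regulators, 4 were called with no filter (4 higher), 1 with a mean of at least 1 CPM (1 higher), 4 with DESeq2 (1 lower), 5 with limma voom (4 higher, 1 lower), and 1 higher and 1 lower with the 3 libraries out. Single omissions gave 1 to 3 (1 to 3 higher, 0 to 1 lower). Over all genes 1063 were called with no filter (411 higher, 652 lower), 742 with DESeq2 (405 and 337), 223 with the 3 libraries out (150 and 73) and 89 lower with RPKM plus 0.1. Single omissions gave 273 to 386 (182 to 242 higher, 91 to 169 lower). Log2 fold changes that did not pass and turned sign were, with the 3 libraries out, Rab11a 0.44, Rab14 0.19, Rab2a 0.15, Rab24 1.66e-04, Rab28 0.54 and Rab1a -0.060, with limma voom Rab14 0.016, Rab28 0.18 and Rab4b -0.36, with RPKM plus 0.1 Rab4b -0.32, and with relative log expression factors Rab10 -4.63e-04. Over single omissions Rab10 ran from -0.30 to 0.34, Rab14 from -0.34 to 0.086 and Rab1a from -0.10 to 0.23. The cause was not tested. No paired analysis was possible because the replicate numbers follow the order of the sample records and pair nothing. Rab genes had 1137 to 5165 counts a library, and members under about 5 CPM rest on few counts.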

Other observations

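The surroundings of Rab7b on chromosome 1 were read for the genes within 250 kb. Of the 7 genes tested there Rab7b, on which the window was centred because it was called, was past the threshold (edgeR adjusted p = 6.43e-05). None of its tested neighbours passed, beside 3.87% of all tested genes. Ctse, an aspartic protease of endosomes 13174 bases away, had means of 4.09 ± 8.76 CPM in NonTg and 9.10 ± 5.27 in P301S (SD, n = 6) and a log2 fold change of 1.24 ± 1.06 (edgeR adjusted p = 0.654). The highest NonTg library had 21.9 CPM of Ctse, so the NonTg mean and the fold change depend largely on that library. Slc41a1, a magnesium transporter 112569 bases away, had 0.81 ± 0.63 (adjusted p = 0.607) on the log2 scale, and Rab29, at 151767 bases, had 0.74. Nucks1, a nuclear DNA-binding protein, had -0.51 ± 0.34 (adjusted p = 0.513), Fam72a had -0.47 ± 0.66 (adjusted p = 0.813), and Srgap2, a regulator of cell shape, had -0.48 ± 0.15 (adjusted p = 0.0799). The tested neighbours had fitted log2 fold changes of both signs, none as large as that of Rab7b. Whether the region changed as a whole was not tested.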
